A study of Homo sapiens with 6 samples.

Results

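The genes described here are 51 genes of G2 and mitosis: mitotic cyclins and CDK1, mitotic kinases, and genes of the spindle checkpoint, kinetochore, spindle, cytokinesis and chromosome separation. They were taken from a list of symbols and matched to the gene identifiers of the read count tables. All 51 matched 1 identifier each among 60483, and all 51 were among the 14732 genes that passed the filter on low counts. The cells were T98G, an established human glioblastoma line, sequenced as 6 poly(A) RNA libraries. 2 libraries came from cells given a pcDNA3.1 plasmid with full-length SRPK1 cDNA (oeSRPK1), 2 from cells given a pLKO.1 plasmid with a short hairpin against SRPK1 (shSRPK1), and 2 from untreated cells (NT). SRPK1 phosphorylates splicing factors rich in arginine and serine, and the study compares cells given a construct meant to raise it, cells given a construct meant to lower it, and untreated cells; its measured RNA is given below. Both plasmids were delivered transiently by lipid transfection, so a library mixes cells that took up plasmid with cells that did not. No library of cells given an empty or non-targeting plasmid was used here, so transfection and construct cannot be told apart in the comparisons with NT.

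Entry into mitosis is driven by CDK1 bound to cyclin B, after CDC25 phosphatases remove inhibitory phosphates from CDK1. Aurora and Polo-like kinases then build the spindle, and the spindle checkpoint holds back the anaphase-promoting complex until every kinetochore is attached. The complex, with CDC20 and the ubiquitin-conjugating enzyme UBE2C, marks cyclin B and securin (PTTG1) for destruction, which lets sister chromatids part. RNA of these genes is low in G1 and peaks in G2 and mitosis, and in human cells many of their promoters are held off in G1 by the DREAM complex and switched on late in the cycle by B-MYB and FOXM1, through a cell cycle homology region (CHR) and CCAAT boxes bound by NF-Y. In a culture of dividing tumour cells, their summed RNA therefore depends both on how many cells are in G2 or mitosis and on the RNA in each such cell, and bulk libraries cannot tell these apart.

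The promoters carry this common layout in their letters. Promoter stretches from RefSeq (GRCh38.p14), 250 bases before to 50 after each start, were found for 44 of the 51 genes. The CHR letters TTTGAA, read on both strands, stood in 32 of 44 stretches (72.7%), against 15.2% of the 35116 promoters in the table. CCAAT on either strand stood in 35 of 44 (79.5%), against 34.6% of all promoters. Both stood in 63.6% of the 44, against 5.9% of all, and in 4.17% of 48 promoters of genes of G1/S and DNA replication, of which 60.4% held the CCAAT box. TTTAAA, another common form of the element, stood in 34.1%, against 12.2% of all. The 250 bases before the start are shown for 5 genes whose RNA is described below, with matches to these 3 motifs on either strand in capitals, none of which overlap. Positions give the first base of a match counted from the start. CCNB1 carries TTTAAA at -30 behind a pair of CCAAT boxes, PLK1 carries TTTGAA at -29, HJURP has TTTGAA among 4 CCAAT boxes, TOP2A has the CHR letters on each strand along with 4 reverse CCAAT boxes, and CDC25B has no match in the 250 bases shown.
CCNB1, chr5:69166900-69167149, plus strand: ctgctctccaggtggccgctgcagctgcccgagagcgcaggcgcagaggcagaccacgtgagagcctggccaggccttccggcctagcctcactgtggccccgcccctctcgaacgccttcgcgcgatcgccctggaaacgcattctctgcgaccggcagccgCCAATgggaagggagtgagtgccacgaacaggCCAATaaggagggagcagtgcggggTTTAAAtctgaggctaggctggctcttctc
PLK1, chr16:23678639-23678888, plus strand: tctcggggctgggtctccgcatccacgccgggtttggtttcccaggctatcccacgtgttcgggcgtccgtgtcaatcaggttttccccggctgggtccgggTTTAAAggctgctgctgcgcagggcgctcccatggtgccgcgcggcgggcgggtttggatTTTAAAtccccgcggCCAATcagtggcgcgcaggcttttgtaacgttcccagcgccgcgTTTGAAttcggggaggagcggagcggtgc
HJURP, chr2:233854536-233854785, minus strand: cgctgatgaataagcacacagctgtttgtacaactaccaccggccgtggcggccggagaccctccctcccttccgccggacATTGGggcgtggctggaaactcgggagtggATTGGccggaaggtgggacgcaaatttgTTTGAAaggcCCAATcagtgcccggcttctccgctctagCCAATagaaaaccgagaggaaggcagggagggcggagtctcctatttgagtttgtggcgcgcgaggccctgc
TOP2A, chr17:40417897-40418146, minus strand: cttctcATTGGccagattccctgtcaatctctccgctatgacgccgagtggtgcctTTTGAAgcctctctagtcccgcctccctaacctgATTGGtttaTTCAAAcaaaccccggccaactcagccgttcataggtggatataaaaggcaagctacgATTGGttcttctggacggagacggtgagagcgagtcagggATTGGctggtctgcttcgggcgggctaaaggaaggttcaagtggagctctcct
CDC25B, chr20:3786701-3786950, plus strand: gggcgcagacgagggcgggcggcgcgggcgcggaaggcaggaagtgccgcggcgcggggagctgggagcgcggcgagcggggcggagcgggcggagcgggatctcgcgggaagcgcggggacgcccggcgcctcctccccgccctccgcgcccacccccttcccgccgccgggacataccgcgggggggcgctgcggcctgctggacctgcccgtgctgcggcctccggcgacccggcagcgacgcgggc

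For the 32 genes with TTTGAA and the 12 without it, the median log2 fold change was 0.26 with it and 0.22 without in oeSRPK1 against NT, 0.23 and 0.46 in shSRPK1 against NT, and -0.02 and -0.10 in oeSRPK1 against shSRPK1; these differences were not tested. Among the 12, CCNB1, CENPE, KIF2C, KIF20A and PTTG1 held TTTAAA, so the split does not part genes with and without any form of the element. UBE2C, AURKA and TTK had no promoter stretch and are in neither group.

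Libraries held between 3891549 (oeSRPK1 replicate 2) and 22691215 (oeSRPK1 replicate 1) reads in genes, and the 51 genes took between 0.319% and 0.441% of them. SRPK1 itself had 190 and 168 CPM (read counts scaled to a common library size) in oeSRPK1, 113 and 140 in shSRPK1, and 153 and 140 in NT. shSRPK1 replicate 1 was below both NT libraries and replicate 2 was level with NT replicate 2, and the difference was not called (log2 fold change -0.21 ± 0.14, SE, edgeR adjusted p = 0.36), nor was the difference of oeSRPK1 from NT (0.29 ± 0.14, adjusted p = 0.175); oeSRPK1 against shSRPK1 passed (0.50 ± 0.14, adjusted p = 0.0377). Of markers of the glioma label, VIM stood at 1740 to 2760 CPM and CD44 at 2530 to 3340, while SOX2, S100B, FABP7 and PTPRZ1 had 0 reads and GFAP 1 read in 1 library. Summed RNA of 24 muscle markers was 396 and 3610 CPM in oeSRPK1, 79.3 to 86.1 in shSRPK1 and 71.3 to 74.4 in NT. TNNT1 made up most of the sums in shSRPK1 (73.9 and 65.7 CPM) and NT (67.8 and 69.3), and had 108 and 120 in oeSRPK1. MYH7 had 108 and 1270 CPM in oeSRPK1, 0 and 5.83 in shSRPK1, and 0 in both NT libraries. ACTA1 had 74.1 and 897 CPM in oeSRPK1, 0.0755 and 3.54 in shSRPK1, and 0.0971 and 0.141 in NT. MYH7 and ACTA1 were thus above NT in shSRPK1 replicate 2 as well, and not in shSRPK1 replicate 1. 6 fibroblast markers summed to 2740 to 2780 CPM in oeSRPK1, 4230 to 5070 in shSRPK1 and 2680 to 2790 in NT. COL1A2 made up most of that sum, with 2610 and 2630 CPM in oeSRPK1, 4750 and 3980 in shSRPK1, and 2500 and 2620 in NT. COL1A1 and PDGFRB were also above NT in both shSRPK1 libraries, PDGFRA overlapped NT, and DCN and LUM were at most 0.68 CPM in any library. The part of these transcripts in the results below was not tested. Replicates of shSRPK1 stood farther apart (chi-square per gene 45.5, correlation of log2 CPM 0.975) than those of oeSRPK1 (8.02, 0.984) and NT (4.46, 0.992), and the mitotic genes are among what set them apart.

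Most of the mitotic genes lay slightly above NT in the transfected cells, and this was uneven between the libraries of a group. Relative to the mean of both NT libraries, on a log2 scale, the median mitotic gene stood at 0.19 in oeSRPK1 replicate 1 (38 of 51 genes above), at 0.34 in oeSRPK1 replicate 2 (45 above), at 0.50 in shSRPK1 replicate 1 (46 above) and at 0.03 in shSRPK1 replicate 2 (26 above). The NT libraries stood at 0.08 and -0.08 by construction around their own mean. The median over all tested genes was between 0 and 0.02 in each library. Thus 1 shSRPK1 library was well above NT over the whole list while the other was level with NT. shSRPK1 replicate 1 exceeded replicate 2 for 48 of 51 genes, with a median difference of 0.40, against 49.2% of all tested genes. In oeSRPK1, replicate 2, the shallow library with the most muscle RNA, exceeded replicate 1 for 46 of 51 genes, by a median of 0.13, and NT replicate 1 exceeded NT replicate 2 for 45 of 51, by a median of 0.15. The widest gap between replicates was that of ANLN, the contractile-ring scaffold, with a level in shSRPK1 replicate 1 of 2.82 times that in replicate 2, followed by the cytokinesis motor KIF20A at 2.19 times.

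**Figure D1:**
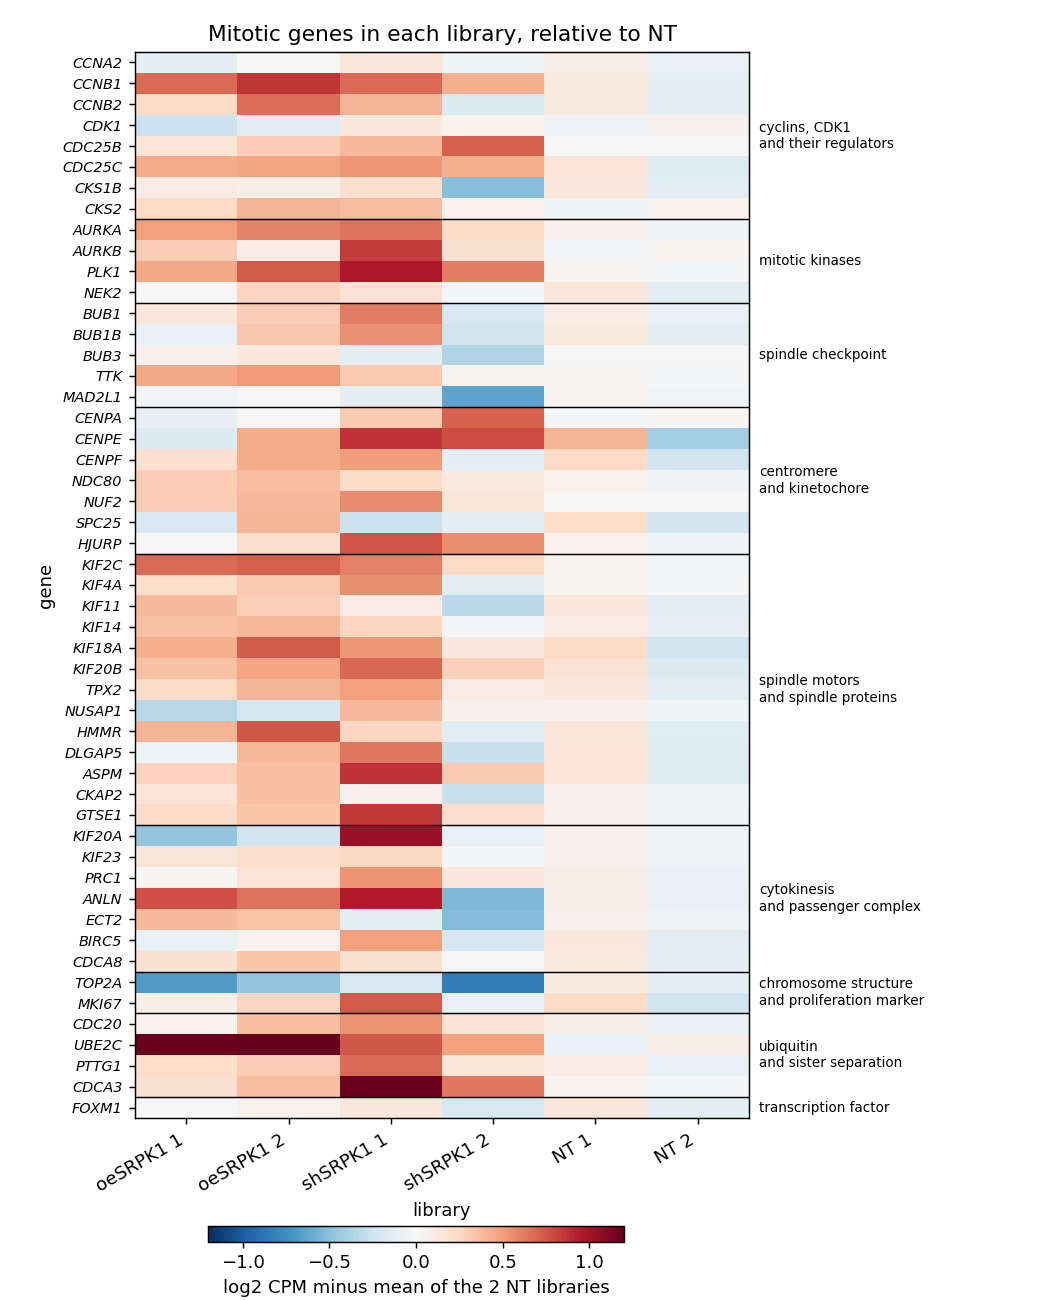
Each row is 1 of the 51 genes, grouped by role, and each column 1 library; colour gives log2 CPM minus the mean of the 2 NT libraries. shSRPK1 1 is red for 46 genes, shSRPK1 2 is mixed with 26 genes above 0, both oeSRPK1 columns are mostly red, and TOP2A is blue in all 4 transfected libraries.

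In oeSRPK1 against NT, 6 of the 51 genes rose and 0 fell: UBE2C, CCNB1, KIF2C, TTK, PLK1 and AURKA. DESeq2 called 4 higher and 0 lower, against 10% and 8.16% of all tested genes. An unadjusted edgeR p under 0.05 was found for 13 of the 51 genes and for 5255 of all 14732 tested genes. The 6 genes, 11.8% of the list, are close to the 11.2% of all tested genes called higher in that comparison, whereas 9.45% of all genes were called lower. The median log2 fold change of the 51 was 0.26, against 0 over all tested genes, and 43 genes (84.3%) were above 0, against 50% of all. Both oeSRPK1 libraries lay above both NT libraries for 31 genes (60.8%), against 35.9% of all tested genes, and below both for 4 (7.84%), against 34.6%. Changes were small: for 44 of 51 genes the 95% interval of the fold change lay within 2-fold in either direction. The same held for 8796 of all 14732 tested genes. The number of calls rested on single libraries, in the list and over all tested genes alike. Leaving out any oeSRPK1 or NT library ended most calls in both. Without oeSRPK1 replicate 1, oeSRPK1 replicate 2, NT replicate 1 or NT replicate 2, the median of the 51 stood at 0.31, 0.19, 0.31 and 0.17 in that order. Without shSRPK1 replicate 1, whose group takes part in the shared spread, 20 genes were higher and 4 lower, against 20.2% and 21.7% of all genes, and without shSRPK1 replicate 2, 19 were higher and 4 lower, against 19.3% and 21.2%. Of 18 alternatives, UBE2C was kept in 18, CCNB1 in 13, KIF2C in 12, PLK1 in 9, TTK in 8 and AURKA in 7, with no change of sign.

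In shSRPK1 against NT, 6 genes rose and 0 fell: HJURP, CDCA3, PLK1, UBE2C, CDC25B and CCNB1. DESeq2 called 6 higher and 0 lower, against 5.82% and 3.91% of all tested genes. An unadjusted edgeR p under 0.05 was found for 17 of the 51 genes and for 4237 of all 14732 tested genes. Here 5.43% of all tested genes were called higher and 3.75% lower, so the 11.8% of the list called higher was above the background and the 0 called lower below it. The median was 0.26, against 0.01 over all genes, and 42 genes (82.4%) were above 0, against 50.9%. Both shSRPK1 libraries lay above both NT libraries for 21 genes (41.2%), against 28.8% of all, and below for 4, against 28.7%. This picture leans on shSRPK1 replicate 1. Without it, 7 mitotic genes were called higher and 6 lower (13.9% and 12% of all genes) and the median was 0.03. Without shSRPK1 replicate 2, 29 were higher and 0 lower (14.9% and 14.1% of all), with a median of 0.49. All 6 calls were kept either way, with the lone shSRPK1 library assumed to vary like the other groups. Over the 18 alternatives, HJURP, PLK1 and UBE2C were kept in 11, CDCA3 and CDC25B in 10 and CCNB1 in 7, with no change of sign. The comparisons of oeSRPK1 and of shSRPK1 with NT use the same NT libraries, so their similar medians are not independent.

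In oeSRPK1 against shSRPK1, ECT2 and UBE2C rose and HJURP, CDCA3 and NUSAP1 fell, while the list as a whole was centred on 0. The median was 0 and 26 genes were above 0. All tested genes were called higher in 11.5% and lower in 11.3%, so the 2 (3.92%) and 3 (5.88%) calls here are below the background. Both oeSRPK1 libraries lay above both shSRPK1 libraries for 13 genes (25.5%), against 31.8% of all, and below both for 8 (15.7%), against 30.5%. The median was 0.18 without shSRPK1 replicate 1 and -0.24 without shSRPK1 replicate 2, so the sign of the median between the transfected groups turns on which shSRPK1 library is used. Without replicate 1, 15 genes were higher and 6 lower, against 16.7% and 19.4% of all genes, and without replicate 2, 2 were higher and 19 lower, against 18% and 20.9%. Of the 5 calls, HJURP, ECT2 and UBE2C were kept in 11 of 18 alternatives, CDCA3 in 10 and NUSAP1 in 9.

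**Figure D2:**
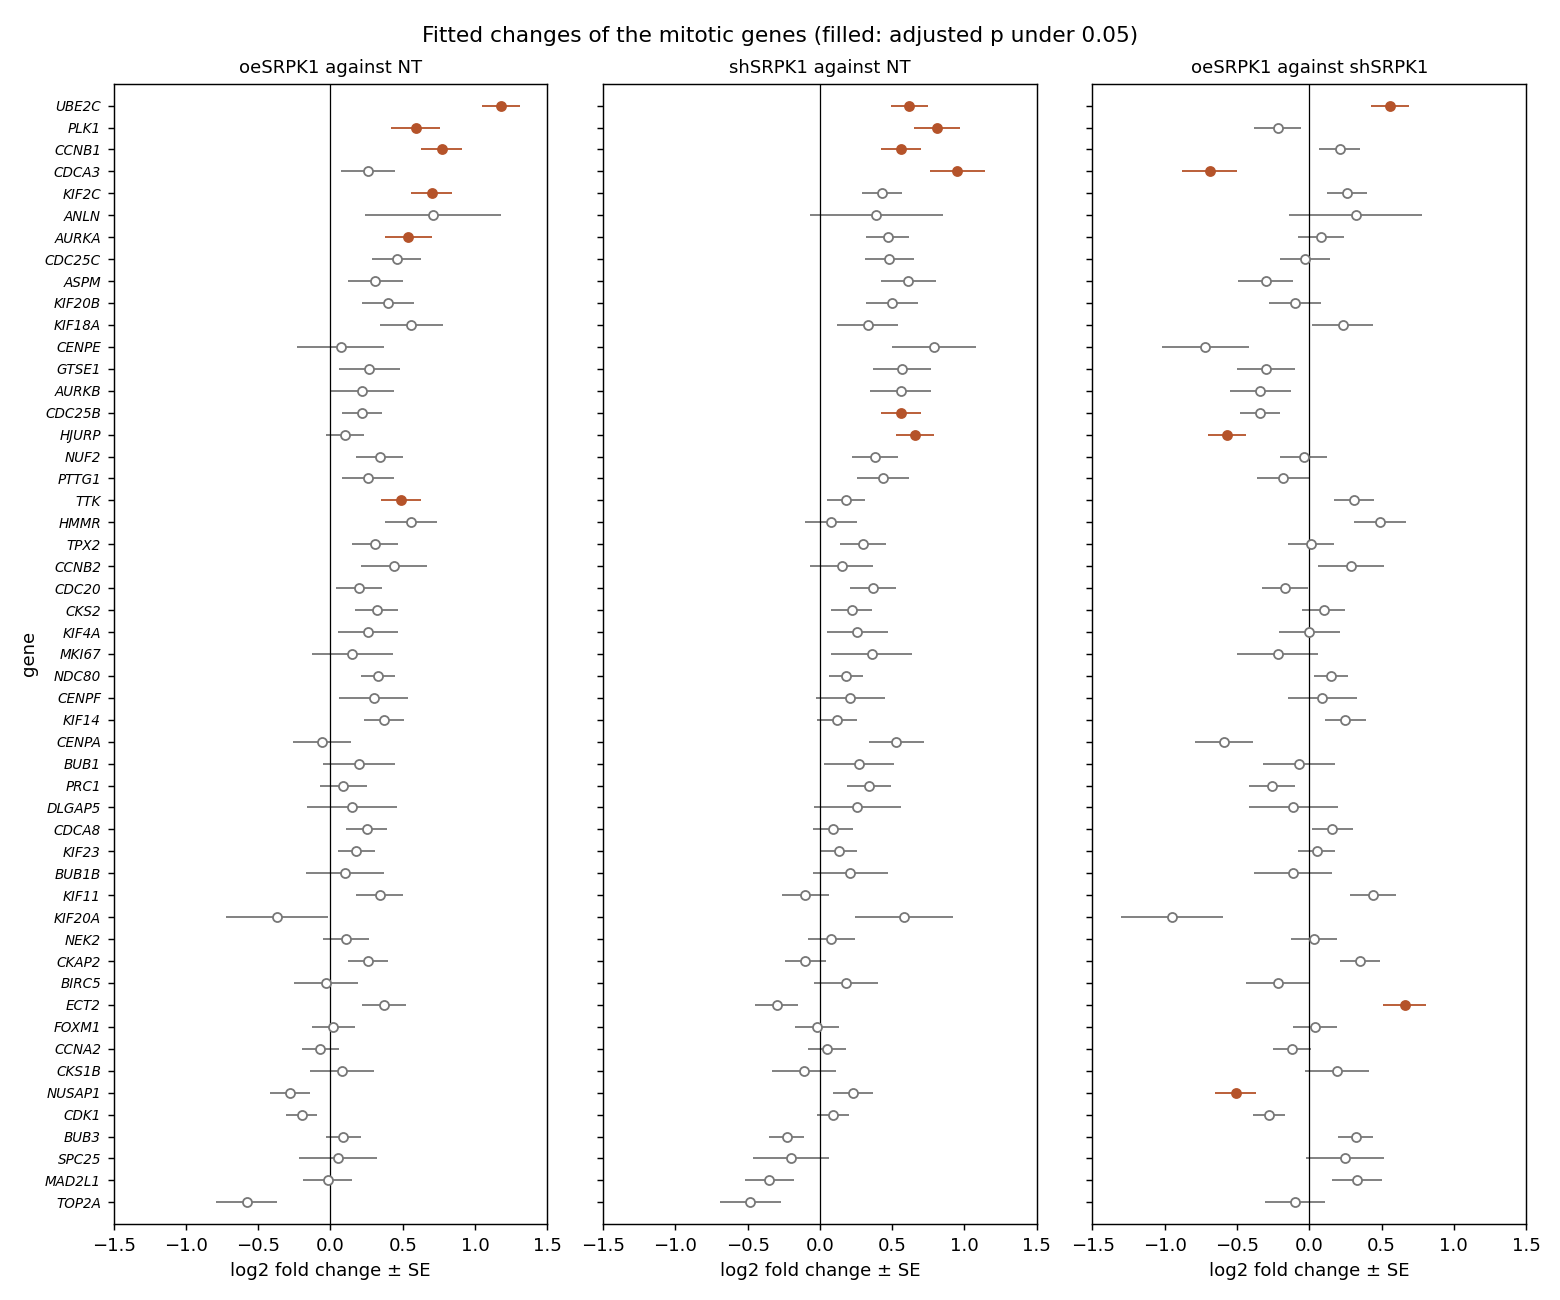
Log2 fold changes ± SE of the 51 genes from edgeR, n = 2 libraries per group, ordered by the sum of both changes against NT; filled points passed an adjusted p of 0.05. Most points lie right of 0 against NT, with UBE2C at the top and TOP2A at the bottom, and they lie on both sides of 0 between oeSRPK1 and shSRPK1.

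Among the cyclins, CDK1 and their regulators (8 genes), the cyclin B gene CCNB1 rose in both transfected groups. CCNB1 (ENSG00000134057.13, chromosome 5, 69167010 to 69178245, plus strand, GRCh38) had 112 and 126 CPM in oeSRPK1, 111 and 93.5 in shSRPK1, and 75.1 and 64.1 in NT. All 4 transfected libraries were above both NT libraries. It was 1.70 times the NT level in oeSRPK1 (95% interval 1.36 to 2.13, log2 0.77 ± 0.14, edgeR adjusted p = 0.00936) and 1.47 times in shSRPK1 (1.18 to 1.83, 0.56 ± 0.14, adjusted p = 0.0458); oeSRPK1 was 1.16 times shSRPK1 (0.927 to 1.44, adjusted p = 0.302). The shSRPK1 call was the less steady, kept in 7 of 18 alternatives with adjusted p between 0.000159 and 0.284; upper-quartile scaling and thinning were among those that ended it. CDC25B, a phosphatase that activates CDK1 complexes, had 142 and 156 CPM in oeSRPK1, 167 and 209 in shSRPK1, and 128 and 126 in NT. It was highest in shSRPK1 and was 1 of only 3 members, with CENPA and SPC25, to be higher in shSRPK1 replicate 2 than in replicate 1. It rose in shSRPK1 against NT (0.56 ± 0.14, edgeR adjusted p = 0.0428) and was not called in oeSRPK1 (0.22 ± 0.14, adjusted p = 0.281).

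The partner kinase and the other cyclins were not called. CDK1 had 72.7 and 79.9 CPM in oeSRPK1, 95.3 and 89.8 in shSRPK1, and 84.1 and 90.0 in NT, and CCNA2, the S and G2 cyclin, had 32 and 34.6 in oeSRPK1, 38.1 and 33.7 in shSRPK1, and 36.7 and 32.9 in NT. Both oeSRPK1 libraries were below the other 4 for CDK1, and the groups overlapped for CCNA2; the fold change of CCNA2 against NT had intervals of 0.769 to 1.18 in oeSRPK1 and 0.838 to 1.27 in shSRPK1. CDC25C, the other mitotic CDC25 phosphatase here, was above NT in all 4 transfected libraries, at 16.0 and 16.3 CPM in oeSRPK1, 17 and 15.8 in shSRPK1, and 13 and 10.5 in NT, without passing the test (adjusted p = 0.0938 in oeSRPK1 and 0.103 in shSRPK1). CCNB2 and the CDK subunits CKS1B and CKS2 were not called, with log2 fold changes between -0.11 and 0.44 against NT.

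Of the 4 mitotic kinases, PLK1 rose in both groups and AURKA in oeSRPK1. PLK1, the Polo-like kinase of mitotic entry and spindle assembly, had 31.5 and 38.0 CPM in oeSRPK1, 44.9 and 34.8 in shSRPK1, and 22.9 and 22.6 in NT. Transfected libraries did not overlap NT. The change was 0.59 ± 0.17 in oeSRPK1 (1.51-fold, 95% interval 1.15 to 1.97, edgeR adjusted p = 0.0409) and 0.81 ± 0.16 in shSRPK1 (1.75-fold, 1.35 to 2.27, adjusted p = 0.0252). The oeSRPK1 call was kept in 9 of 18 alternatives (adjusted p 0.00121 to 0.212). AURKA, the centrosome kinase, had 53.2 and 57.1 CPM in oeSRPK1, 59.4 and 44.6 in shSRPK1, and 38.9 and 36.4 in NT, again without overlap with NT; it passed in oeSRPK1 (0.54 ± 0.16, edgeR adjusted p = 0.0439) and not in shSRPK1 (0.47 ± 0.15, adjusted p = 0.0953). Its call was kept in 7 of 18 alternatives (adjusted p 0.000514 to 0.25). Upper-quartile scaling and limma-voom each ended the oeSRPK1 calls of both PLK1 and AURKA. AURKB, the kinase of the chromosomal passenger complex, had 24.4 and 21.2 CPM in oeSRPK1, 35.6 and 22.6 in shSRPK1, and 19.5 and 20.2 in NT, and NEK2, a centrosome kinase, was within 27.8 to 36.4 CPM in all 6 libraries. Neither was called.

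Of the 5 spindle checkpoint genes, 1 was called. TTK, the MPS1 kinase that starts checkpoint signalling, had 43.4 and 44.7 CPM in oeSRPK1, 39.0 and 32.0 in shSRPK1, and 31.7 and 31.0 in NT. The groups did not overlap, and it rose in oeSRPK1 against NT (0.49 ± 0.14, 1.40-fold, edgeR adjusted p = 0.0399) but was not called in shSRPK1 (0.18 ± 0.13, adjusted p = 0.409). BUB1, BUB1B, BUB3 and MAD2L1, which form or recruit the inhibitor of the anaphase-promoting complex, were not called in any comparison. MAD2L1 had 60.5 and 61.8 CPM in oeSRPK1, 57.1 and 40.0 in shSRPK1, and 63.6 and 60.5 in NT, so the low value was that of shSRPK1 replicate 2 (shSRPK1 against NT -0.35 ± 0.17, adjusted p = 0.207).

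At the centromere, HJURP set the shSRPK1 libraries apart. HJURP (ENSG00000123485.10, chromosome 2, 233833416 to 233854566, minus strand), the chaperone that loads the centromeric histone CENPA, had 115 and 131 CPM in oeSRPK1, 194 and 169 in shSRPK1, and 118 and 111 in NT. Both shSRPK1 libraries were above the other 4. It rose in shSRPK1 against NT (1.58-fold, 95% interval 1.29 to 1.94, 0.66 ± 0.13, edgeR adjusted p = 0.0224) and fell in oeSRPK1 against shSRPK1 (0.675-fold, 0.551 to 0.827, -0.57 ± 0.13, adjusted p = 0.0187), while oeSRPK1 against NT was not called (0.10 ± 0.13, adjusted p = 0.634). HJURP also stood above the median mitotic gene in both shSRPK1 libraries, by 0.26 and 0.53 (log2). CENPA, its client, was arranged alike, with 8.64 and 9.31 CPM in oeSRPK1, 11.6 and 15.2 in shSRPK1, and 9.13 and 9.39 in NT, but did not pass (0.53 ± 0.19, adjusted p = 0.117 in shSRPK1 against NT; -0.59 ± 0.20, adjusted p = 0.0663 in oeSRPK1 against shSRPK1). CENPE, the kinetochore motor, had 17.2 and 26.4 CPM in oeSRPK1, 35.3 and 33.3 in shSRPK1, and 25.6 and 14.5 in NT; shSRPK1 was highest, the NT replicates were far apart, and no comparison passed (smallest adjusted p 0.125). The NDC80 complex genes NDC80, NUF2 and SPC25 and the kinetochore protein CENPF were not called.

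The spindle motors and spindle proteins were the largest group (13 genes) and were mostly above NT in oeSRPK1: both libraries lay above both NT libraries for 11 of 13, with a median log2 fold change of 0.31. Over the 51 genes this held for 60.8%, with a median of 0.26, and over all tested genes for 35.9%. KIF2C, the microtubule-depolymerising kinesin that corrects faulty attachments, passed the test. It had 137 and 141 CPM in oeSRPK1, 130 and 101 in shSRPK1, and 87.4 and 83.5 in NT. It was 1.62 times the NT level in oeSRPK1 (0.70 ± 0.14, edgeR adjusted p = 0.013, 95% interval of the fold 1.30 to 2.02); shSRPK1 stood at 1.35 times NT (1.08 to 1.68, adjusted p = 0.087). NUSAP1, a microtubule-bundling protein, went the other way between the transfected groups: 54.4 and 59.5 CPM in oeSRPK1, 90.6 and 71.2 in shSRPK1, and 71.4 and 66.7 in NT. oeSRPK1 was below the other 4 libraries and the change against shSRPK1 passed (-0.51 ± 0.14, edgeR adjusted p = 0.0372), while that against NT did not (-0.28 ± 0.14, adjusted p = 0.197). KIF11, the motor that pushes spindle poles apart, had 124 and 116 CPM in oeSRPK1, 101 and 75.5 in shSRPK1, and 104 and 86.7 in NT. HMMR, a spindle-associated protein, had 57.7 and 72.9 CPM in oeSRPK1, 52.3 and 39.8 in shSRPK1, and 48.2 and 39.4 in NT. For both genes the oeSRPK1 libraries were the highest and no comparison passed (smallest adjusted p 0.0863 and 0.065). ASPM and GTSE1 were highest in shSRPK1 replicate 1, at 99.7 and 47.1 CPM, and all 4 transfected libraries were above NT (NT 61.0 and 49.0 for ASPM, 27.0 and 25.1 for GTSE1), without a call. TPX2, DLGAP5, CKAP2, KIF4A, KIF14, KIF18A and KIF20B gave log2 fold changes of -0.10 to 0.56 against NT and no call.

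Among 7 cytokinesis and passenger genes, ECT2 was called, between the transfected groups. ECT2, the exchange factor that activates RhoA at the cleavage furrow, had 110 and 106 CPM in oeSRPK1, 77.8 and 58.2 in shSRPK1, and 87.2 and 80.2 in NT. The 3 groups did not overlap, in the order oeSRPK1, NT, shSRPK1. oeSRPK1 rose over shSRPK1 (1.59-fold, 95% interval 1.25 to 2.01, 0.66 ± 0.15, edgeR adjusted p = 0.0189), and neither group passed against NT (0.37 ± 0.15, adjusted p = 0.119 in oeSRPK1; -0.30 ± 0.15, adjusted p = 0.228 in shSRPK1). ANLN had 298 and 273 CPM in oeSRPK1, 337 and 120 in shSRPK1, and 183 and 165 in NT. The shSRPK1 replicates lay on either side of NT, and no change was called (0.71 ± 0.47, adjusted p = 0.333 in oeSRPK1 against NT). KIF20A had 34.2 and 40.3 CPM in oeSRPK1, 97.6 and 44.6 in shSRPK1, and 49.3 and 45.8 in NT, with shSRPK1 replicate 1 alone high and both oeSRPK1 libraries the lowest; its change in oeSRPK1 against shSRPK1, the lowest of the 51 (-0.95 ± 0.35), missed the threshold (adjusted p = 0.102). KIF23 and PRC1 of the central spindle, and BIRC5 (survivin) and CDCA8 (borealin) of the passenger complex, gave changes of -0.03 to 0.34 against NT and no call.

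TOP2A had the lowest fitted change of the 51 against NT in both groups. TOP2A, the topoisomerase that untangles sister chromatids, had 313 and 362 CPM in oeSRPK1, 440 and 283 in shSRPK1, and 545 and 462 in NT. All 4 transfected libraries were below both NT libraries, but the changes were not called: 0.670-fold in oeSRPK1 (95% interval 0.476 to 0.942, -0.58 ± 0.21, edgeR adjusted p = 0.0926) and 0.718-fold in shSRPK1 (0.511 to 1.01, -0.48 ± 0.21, adjusted p = 0.183). Against the median mitotic gene of its own library, TOP2A stood at -0.87 and -0.81 in oeSRPK1, -0.69 and -0.86 in shSRPK1, and 0.04 and -0.04 in NT (log2), so its offset was steadier across transfected libraries than its level. MKI67, which encodes the proliferation marker Ki-67, had 115 and 130 CPM in oeSRPK1, 181 and 103 in shSRPK1, and 129 and 92.4 in NT and was not called.

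Among the genes of ubiquitin-driven exit and sister separation, UBE2C had the largest change. UBE2C (ENSG00000175063.15, chromosome 20, 45812576 to 45816957, plus strand) had 152 and 154 CPM in oeSRPK1, 113 and 94.1 in shSRPK1, and 63.8 and 71.0 in NT. The 3 groups did not overlap. It was 2.27 times the NT level in oeSRPK1 (95% interval 1.85 to 2.79, 1.18 ± 0.13, edgeR adjusted p = 0.0015), 1.54 times in shSRPK1 (1.25 to 1.89, 0.62 ± 0.13, adjusted p = 0.0271), and 1.48 times the shSRPK1 level in oeSRPK1 (1.21 to 1.81, 0.56 ± 0.13, adjusted p = 0.0191). The rise in oeSRPK1 against NT was the only call on the 51 genes that stood under all 18 alternatives tried, with adjusted p between 2e-12 and 0.0393. It was also far from the rest of the list, 0.99 and 0.85 above the median mitotic gene in the oeSRPK1 libraries (log2). CDCA3, part of a ubiquitin ligase that acts on the mitotic brake WEE1, was highest in shSRPK1: 26.5 and 30 CPM in oeSRPK1, 53.3 and 36.3 in shSRPK1, and 23.7 and 23.0 in NT. In shSRPK1 it stood at 1.93 times NT (0.95 ± 0.19, edgeR adjusted p = 0.0249, 95% interval of the fold 1.43 to 2.60), and oeSRPK1 was 0.622 times shSRPK1 (0.459 to 0.843, -0.69 ± 0.19, adjusted p = 0.0373). CDC20, the activator of the anaphase-promoting complex, was above the NT mean by 0.04 and 0.36 (log2) in oeSRPK1 and by 0.54 and 0.18 in shSRPK1, and PTTG1 by 0.22 and 0.30 in oeSRPK1 and by 0.68 and 0.15 in shSRPK1; shSRPK1 replicate 1 was the highest for both, and neither was called.

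FOXM1, the transcription factor of the list, was not called in any comparison: 70.9 and 72.9 CPM in oeSRPK1, 77.7 and 62.0 in shSRPK1, and 77.6 and 64.3 in NT. The groups overlapped, and its fold change against NT was 1.01 in oeSRPK1 (95% interval 0.798 to 1.29, edgeR adjusted p = 0.944) and 0.987 in shSRPK1 (0.779 to 1.25, adjusted p = 0.946).

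**Figure D3:**
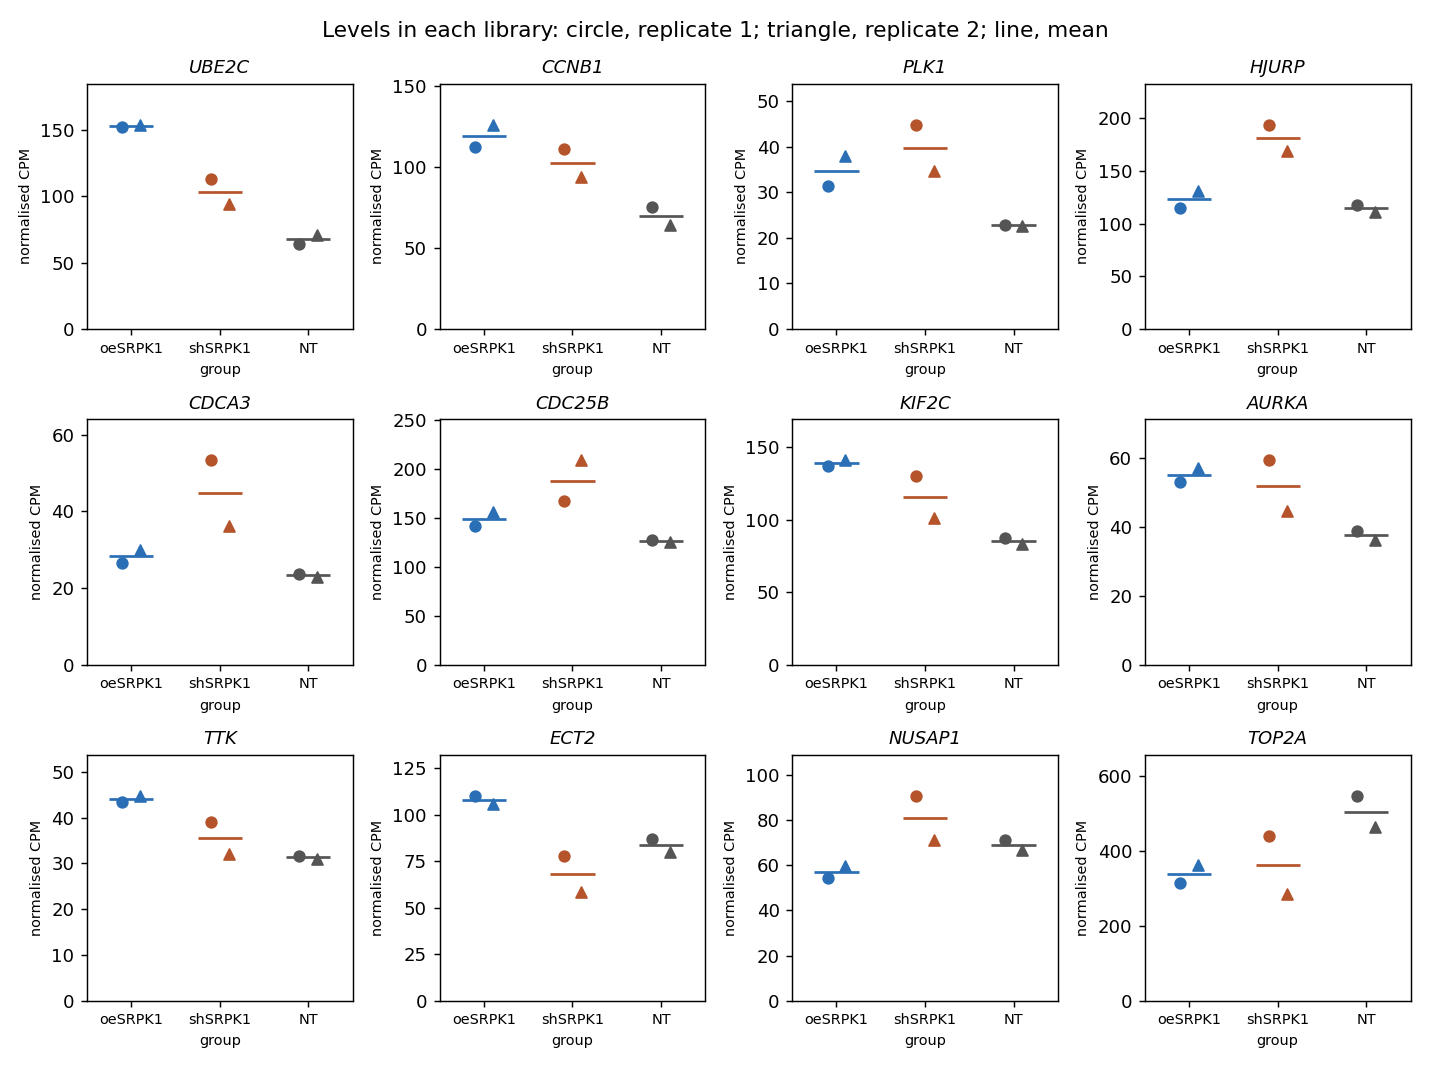
Normalised CPM (y axis from 0) in each of the 6 libraries, by group, for the 11 genes called in any comparison and TOP2A; circles are replicate 1, triangles replicate 2 and lines the mean of 2. UBE2C is at 152 and 154 in oeSRPK1 against 63.8 and 71.0 in NT; HJURP and CDCA3 are highest in shSRPK1; TOP2A is highest in NT.

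Per kilobase of exon, the genes spanned a wide range: the mean level in NT was 2.13 RPKM for CENPE, 10.9 for the median gene and 78.2 for TOP2A, and in oeSRPK1 it was 2.31, 12.4 and 119, the highest there being UBE2C. UBE2C, CKS2 and TOP2A were the top 3 genes in oeSRPK1 and in shSRPK1, and TOP2A, CKS2 and UBE2C in NT, so UBE2C and TOP2A changed places at the head of the list.

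Counts in lists of related genes are to be read against all tested genes, of which 11.2% rose and 9.45% fell in oeSRPK1 against NT, and 5.43% rose and 3.75% fell in shSRPK1 against NT. In the list of entry into mitosis and its brakes (28 tested), 6 rose and 2 fell in oeSRPK1 against NT, and 3 rose and 1 fell in shSRPK1, with medians of 0.11 and 0.15. BORA, an activator of AURKA towards PLK1, rose in both: 25.4 and 27.7 CPM in oeSRPK1, 22.4 and 24.9 in shSRPK1, and 15 and 13.9 in NT (0.87 ± 0.14, edgeR adjusted p = 0.00674; 0.71 ± 0.14, adjusted p = 0.0249). The CDK inhibitor CDKN1A (p21) had 128 and 119 CPM in oeSRPK1, 66.8 and 80.3 in shSRPK1, and 59.6 and 67.6 in NT, and rose in oeSRPK1 against NT (0.96 ± 0.13, adjusted p = 0.00348) and against shSRPK1 (0.75 ± 0.13, adjusted p = 0.00845). CCNG2, a cyclin linked to cell cycle arrest, rose in both, at 53.4 and 46.5 CPM in oeSRPK1, 66.9 and 55.3 in shSRPK1, and 28.1 and 29.4 in NT (0.81 ± 0.14, adjusted p = 0.00823; 1.09 ± 0.14, adjusted p = 0.00772). Of 17 genes of the anaphase-promoting complex and sister separation, 3 rose and 4 fell in oeSRPK1 against NT, and 0 rose and 1 fell in shSRPK1. UBE2S, which extends the ubiquitin chains that UBE2C starts, had 84.5 and 96.9 CPM in oeSRPK1, 63.1 and 77.1 in shSRPK1, and 51.4 and 53.8 in NT and rose in oeSRPK1 (0.78 ± 0.14, edgeR adjusted p = 0.00842). ANAPC11 fell in oeSRPK1 (-0.71 ± 0.16, adjusted p = 0.0189). ANAPC13 fell in oeSRPK1 (-0.52 ± 0.12, adjusted p = 0.0203) and in shSRPK1 (-0.56 ± 0.12, adjusted p = 0.0272). Of 20 condensin and cohesin genes, SMC4 of condensin rose in both, with 326 and 325 CPM in oeSRPK1, 271 and 253 in shSRPK1, and 177 and 164 in NT (0.94 ± 0.12, adjusted p = 0.00238; 0.62 ± 0.12, adjusted p = 0.0209). That list had 2 genes higher and 1 lower in oeSRPK1 and 1 higher and 0 lower in shSRPK1.

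Of 34 other kinetochore and checkpoint genes, 3 rose (8.82%) and 4 fell (11.8%) in oeSRPK1 against NT, close to those shares, and 1 rose (2.94%) and 3 fell (8.82%) in shSRPK1. CENPH, of the constitutive centromere network, had 26 and 30 CPM in oeSRPK1, 25.8 and 23.5 in shSRPK1, and 45.8 and 42.4 in NT, and fell in both (-0.67 ± 0.13, edgeR adjusted p = 0.0133; -0.84 ± 0.13, adjusted p = 0.013). CENPT, of the same network, stood at 25.2 and 33.6 CPM in oeSRPK1, 63.7 and 51.9 in shSRPK1, and 29 and 35.1 in NT, a rise in shSRPK1 against NT (0.85 ± 0.18, adjusted p = 0.0282) and a fall in oeSRPK1 against shSRPK1 (-1.01 ± 0.18, adjusted p = 0.00949). Among 29 other spindle and centrosome genes, 2 rose and 3 fell in oeSRPK1 against NT and 0 rose and 1 fell in shSRPK1, and among 13 other cytokinesis genes 1 rose in oeSRPK1, 0 rose in shSRPK1 and 0 fell in either. Of 25 cell cycle transcription factors and their partners, 3 rose and 5 fell in oeSRPK1, and 0 rose and 3 fell in shSRPK1. E2F7, a repressor of E2F target genes, rose in oeSRPK1, at 537 and 443 CPM, against 115 and 118 in NT (2.07 ± 0.14, edgeR adjusted p = 0.000392). E2F1 fell in oeSRPK1, at 18.5 and 28.2 CPM, against 89.1 and 68.6 in NT (-1.82 ± 0.30, adjusted p = 0.00963). E2F2 (-1.68 ± 0.28, adjusted p = 0.00693) and RBBP4 (-0.71 ± 0.12, adjusted p = 0.00723) fell in oeSRPK1 too. Both shSRPK1 libraries were also below NT for E2F1 (45.7 and 27.6 CPM), E2F2 and RBBP4, without a call. Their changes in shSRPK1 against NT were -1.10 ± 0.29, -0.86 ± 0.25 and -0.44 ± 0.12 (edgeR adjusted p = 0.0595, 0.0722 and 0.0588). MYBL2 (B-MYB), at 19.6 and 25.9 CPM in oeSRPK1 and 37.1 and 33.6 in shSRPK1, fell between the transfected groups (-0.68 ± 0.16, adjusted p = 0.0234). In oeSRPK1 against shSRPK1, 7 genes of entry and its brakes were higher and 2 lower, with 5 and 3 of the kinetochore list, 3 and 4 of the spindle list and 5 and 3 of the transcription factors, against 11.5% and 11.3% of all tested genes.

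The earlier part of the cycle stood lower in the same libraries. Of 60 genes of G1/S and DNA replication, 0 rose and 31 fell (51.7%) in oeSRPK1 against NT, where 9.45% of all tested genes fell, with a median of -0.83. In shSRPK1, 0 rose and 9 fell (15%), where 3.75% of all fell, with a median of -0.56. Relative to NT their median was -0.93 and -0.68 in oeSRPK1, and -0.29 and -0.87 in shSRPK1, by replicate. The median mitotic gene therefore stood above the median G1/S gene by 1.12 and 1.02 in oeSRPK1, by 0.79 and 0.90 in shSRPK1, and by -0.05 and 0.05 in NT (log2). Both lists were higher in shSRPK1 replicate 1 than in replicate 2, so the distance between them varied less between the shSRPK1 libraries than either list did. No test was made of this distance, since the lists were chosen with results of these data known.

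**Figure D4:**
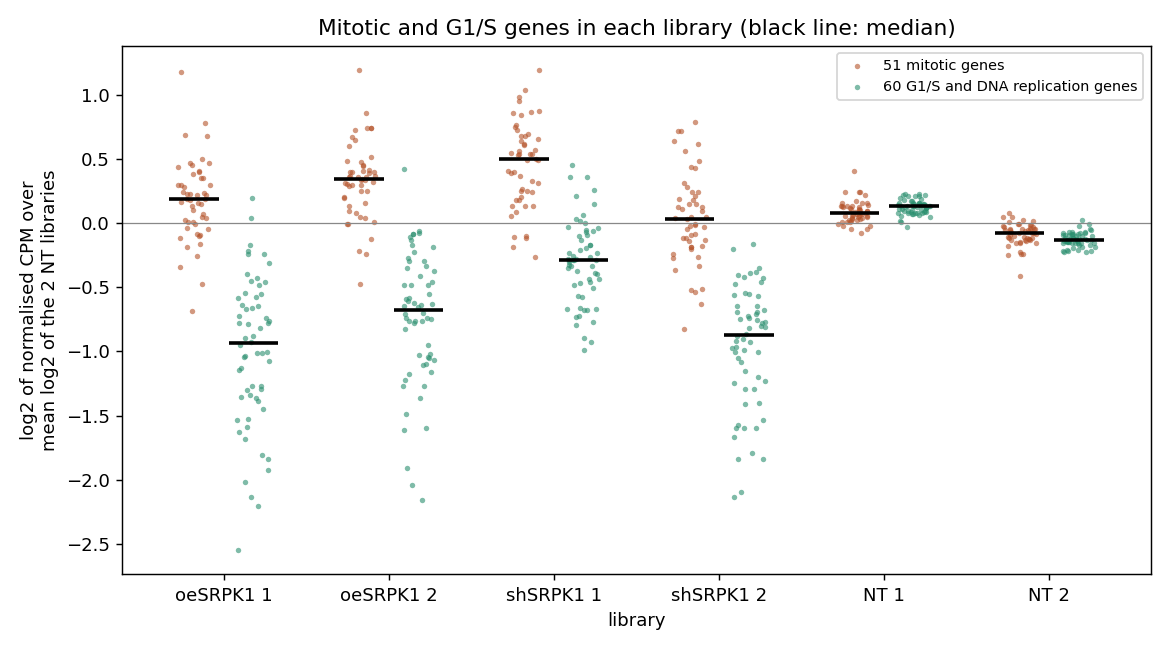
Each point is 1 gene in 1 library, as log2 of normalised CPM over the mean log2 of the 2 NT libraries; orange points are the 51 mitotic genes, green points 60 genes of G1/S and DNA replication, and black lines medians. In the 4 transfected libraries the mitotic median lies between 0.03 and 0.50 and the G1/S median between -0.93 and -0.29; in NT both lie between -0.13 and 0.13.

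These calls rest on 2 libraries a group and on a spread shared by all 6. With any oeSRPK1 or NT library left out, the calls on the 51 genes ended in shSRPK1 against NT and in oeSRPK1 against shSRPK1. Most calls over all tested genes were lost in the same fits. The median of the 51 was then 0.17 to 0.37 in shSRPK1 against NT and -0.08 to 0.05 in oeSRPK1 against shSRPK1. Fitted with NT alone, oeSRPK1 gave 20 genes higher and 3 lower, against 21.6% and 22.6% of all tested genes. Fitted likewise, shSRPK1 gave 0 in both directions, against 0.623% and 0.28% of all tested genes. Exons of 19 members share bases with other annotated genes, among them CDCA3 with GNB3 and KIF20A with BRD8 and CDC23. The strand setting of the counting was not given, so reads of such members could be shared with genes on the other strand. BUB1B and CENPA share 457 and 138 bases with BUB1B-PAK6 and SLC35F6 on the same strand, and BUB1B-PAK6 had 0 reads in every library. The annotated read-through genes that share exons with NUSAP1 and PRC1 were not among the genes counted.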

How the data were processed

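RNA of T98G cells was sequenced as paired reads of 101 bp from poly(A) RNA, 2 libraries per group, per the labels' protocols. Each library has a table, deposited by the authors, of raw read counts by gene. FastQC, Trimmomatic, STAR 2.5.3 and the hg38 build are named in the submitters' processing notes; the counting tool, annotation release and whether counting used strand are not given in the sources used here. Entries that name no gene entered neither depth nor tests: reads in no gene made up 8.13% to 11.1% of the total, reads aligned to several places 12.0% to 13.1%, and ambiguous reads 3.04% to 3.37%. Symbols, positions and exon lengths came from a table of gene names and GENCODE 29 (GRCh38).

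Genes were kept by edgeR's filterByExpr (minimum count 10, minimum total 15), which left 14732 genes holding 99.8% of the reads. TMM scaling was used, and counts were tested with glmQLFit (robust) and glmQLFTest of edgeR 4.0.16 in R 4.3.3 over all 6 libraries (biological coefficient of variation 14.5%), with Benjamini-Hochberg adjustment over all tested genes and a threshold of 0.05. SE is the absolute log2 fold change over the square root of F. Normalised CPM uses TMM library sizes, log2 CPM a prior count of 2, and RPKM the summed exon length. The floor of 3 counts ranged from 0.132 to 0.771 CPM over the libraries and covers counting error only. The steps were tested on simulated data with the same spread in every group. Replicates here differed in spread between groups, so that test does not cover this feature of the libraries.

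The 51 genes and the other gene lists were chosen with earlier results of these data known. The rule for named genes gave values in every library for members called in any comparison and for the 4 smallest and 4 largest fitted changes, and up to 4 called genes per comparison, by smallest adjusted p, from each other list; not all of these are printed. Further members shown in each role were chosen after their values were seen. The alternatives comprised scaling by DESeq2 size factors or upper quartiles, no filter, a stricter filter (5 CPM in 2 libraries), an adjusted p under 0.01, a minimum of 2-fold, DESeq2 1.42.0, limma-voom (limma 3.58.1), fitting the compared groups alone, a replicate block, thinning to the shallowest library and leaving out each library; limma-voom with group-specific spread was chosen after seeing the data. The labels call the libraries of a group biological replicates but do not name separate cultures; p-values then reflect how far these libraries differ, which may be technical.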

Additional observations from a re-analysis of the deposited data

How the results depend on the processing

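Counts of mitotic genes are given as higher and lower in the comparison named. Scaling by DESeq2 size factors, the stricter filter, DESeq2 and limma-voom left all counts within 1.5 times. Upper-quartile scaling, which moved the median of all genes by at most -0.05, left 3 genes higher in oeSRPK1 against NT (9.9% of all genes). The replicate block also left 3 (9.96% of all). It ended the oeSRPK1 calls of AURKA, PLK1 and TTK and the shSRPK1 calls of CCNB1 and CDC25B. Without a filter, oeSRPK1 against NT had 1 lower (7.64% of all genes), shSRPK1 against NT 14 higher and 1 lower (5.4% and 3.77%), and oeSRPK1 against shSRPK1 7 lower (9.17%). At an adjusted p under 0.01, oeSRPK1 against NT kept 2 higher (3.97% of all) and shSRPK1 against NT 0 (0.828%). oeSRPK1 against shSRPK1 kept 0 in both directions (3.27% and 3.32% of all). With a minimum of 2-fold, these comparisons kept 1 higher (4.95% of all), 0 higher (2.15%) and 0 in both directions (4.07% and 4.47%). Fitting only the libraries compared gave 20 higher and 3 lower in oeSRPK1 against NT (21.6% and 22.6% of all). It gave 0 in shSRPK1 against NT (0.623% and 0.28% of all) and 0 in oeSRPK1 against shSRPK1 (5.27% and 5.18%). Thinning left 1 lower in oeSRPK1 against shSRPK1 (9.13% of all). The limma-voom fit with group-specific spread, chosen after seeing the data, gave 18 higher and 2 lower in oeSRPK1 against NT (22.1% and 20.2% of all). Leaving out each library gave 1 to 20 higher and 0 to 4 lower in oeSRPK1 against NT (1.36% to 20.2% and 0.456% to 21.7% of all), 0 to 29 higher and 0 to 6 lower in shSRPK1 against NT (0.151% to 14.9% and 0.0314% to 14.1%), and 0 to 15 higher and 0 to 19 lower in oeSRPK1 against shSRPK1 (0.701% to 18% and 0.251% to 20.9%). ANLN in shSRPK1 against NT was -0.54 (edgeR adjusted p = 0.00184) without shSRPK1 replicate 1 and 0.96 without replicate 2, and BUB1 in oeSRPK1 against shSRPK1 was 0.35 (adjusted p = 0.0492) and -0.46; the cause was not tested. Differences of replicate 1 from replicate 2 over all tested genes correlated between groups at -0.02 (oeSRPK1 and NT), 0.01 (shSRPK1 and NT) and 0.02 (oeSRPK1 and shSRPK1). A correlation over all genes, noisy low counts included, cannot exclude that replicate numbers mark pairs or batches. The deepest and the shallowest library are both oeSRPK1, and the lowest count of a member, 36 reads for CENPA, was in oeSRPK1 replicate 2.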
